A study of Arabidopsis thaliana with 12 samples.

Results

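The genes described here encode 5 proteins of the plastid ribosome, RPL5 (AT4G01310), RPL17 (AT3G54210), RPL29 (AT5G65220), RPL34 (AT1G29070) and RPS6 (AT1G64510). They were taken from the array by their locus, as probes whose platform annotation names exactly 1 gene. Each locus had 1 such probe, so the set holds 5 of the 692 probes with 1 gene name and of 3439 probes in all. The annotation tables list these loci by number without a protein name. The names are the established ones, and the probes themselves carry no further check of identity.

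Wild-type Arabidopsis thaliana of the Landsberg ecotype was used throughout, and each plant had received 50 µM paraquat, a herbicide that diverts electrons of photosystem I to oxygen and so produces superoxide in illuminated chloroplasts. The light group comprised 6 array columns from plants returned to light for 30 min after a dark period of 12 h. The dark group comprised 6 columns from plants kept in darkness for 12 h. Columns carry the numbers 1 to 6 in each group, plant age and tissue are not given in the labels, and no untreated plants are among the columns. Every difference below thus compares light with dark under paraquat.

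Chloroplasts translate the genes of their own genome on a ribosome of the bacterial type. Most of its proteins are encoded in the nucleus, made in the cytosol and imported, whereas its ribosomal RNAs and the remaining proteins are encoded in the plastid. The large subunit catalyses peptide bond formation and the small subunit decodes the messenger RNA. In seedlings and young leaves, chloroplast ribosomes make core subunits of both photosystems and the large subunit of Rubisco.

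None of the 4 genes that were measured in every column differed between light and dark past the threshold (limma, adjusted p under 0.05 over all 3409 probes tested, n = 6 columns per group). At this threshold 5.78% of all probes were called, and with the column number as a replicate block 13.1% were called, again with none of the 4. The large-subunit genes RPL5, RPL17 and RPL34 had lower values in light and the small-subunit gene RPS6 had a higher one. Their log2 differences had a median of -0.19, against 0.002 over all probes tested, of which 49.7% were lower in light. A set of 4 genes is too small for more than this description. Levels of different probes are not compared with each other, and in bulk RNA fewer cells of a type and less RNA per cell cannot be told apart.

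RPL5 belongs to the large subunit, where its bacterial counterpart binds the 5S ribosomal RNA. Its deposited intensity ranged from 0.600 to 0.814 in light, with a median of 0.694, against 0.731 to 0.959 in dark, with a median of 0.900. The groups overlapped through dark column 4, the lowest of its group, and the other 5 dark columns lay above every light column. Non-overlapping groups were seen for 4.66% of all probes, and no member was among them. RPL5 averaged 0.704 ± 0.0834 in light and 0.883 ± 0.0856 in dark (SD, n = 6 each). After normalisation its log2 difference was -0.27, or 0.831-fold, with an unadjusted 95% interval of -0.50 to -0.03 and an adjusted p of 0.186 (limma, unadjusted p = 0.0296). The size of this difference exceeded that of 67.9% of probes. With the replicate block the interval was wider and held 0, from -0.55 to 0.02 (limma adjusted p = 0.198, unadjusted p = 0.0638).

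RPL17 is also a protein of the large subunit. Its intensity ranged from 0.651 to 0.904 in light, with a median of 0.846, against 0.732 to 1.11 in dark, with a median of 0.927. The ranges overlapped broadly, and 1 light column, number 5, lay below every dark column. The means were 0.809 ± 0.0981 in light and 0.914 ± 0.126 in dark (SD, n = 6 each), and the log2 difference of -0.11 had an interval of -0.35 to 0.13 (limma adjusted p = 0.642). The replicate block gave an interval of -0.37 to 0.15 (limma adjusted p = 0.521).

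RPL34 is a large-subunit protein whose bacterial counterpart is among the smallest ribosomal proteins. It had intensities of 0.127 to 0.234 in light, with a median of 0.198, against 0.161 to 0.330 in dark, with a median of 0.260. Light columns 2 and 5 lay below every dark column, and dark columns 2, 3, 5 and 6 lay above every light column. The means of 0.184 ± 0.0422 in light and 0.244 ± 0.0661 in dark (SD, n = 6 each) corresponded to a log2 difference of -0.37. This was the widest difference of the set in log2 terms, yet its interval ran from -0.84 to 0.10 (limma adjusted p = 0.388). The replicate block gave an interval of -0.92 to 0.18 (limma adjusted p = 0.334).

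RPS6 is a protein of the small subunit, where its bacterial counterpart pairs with S18. Its intensity was 0.127 to 0.282 in light, with a median of 0.219, against 0.144 to 0.245 in dark, with a median of 0.185. The light range enclosed the dark range on both sides. Means were 0.212 ± 0.0525 in light and 0.189 ± 0.0327 in dark (SD, n = 6 each). The log2 difference of 0.16 had an interval of -0.25 to 0.56 (limma adjusted p = 0.719). With the replicate block the interval was narrower, from -0.07 to 0.39 (limma adjusted p = 0.320).

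**Figure D1:**
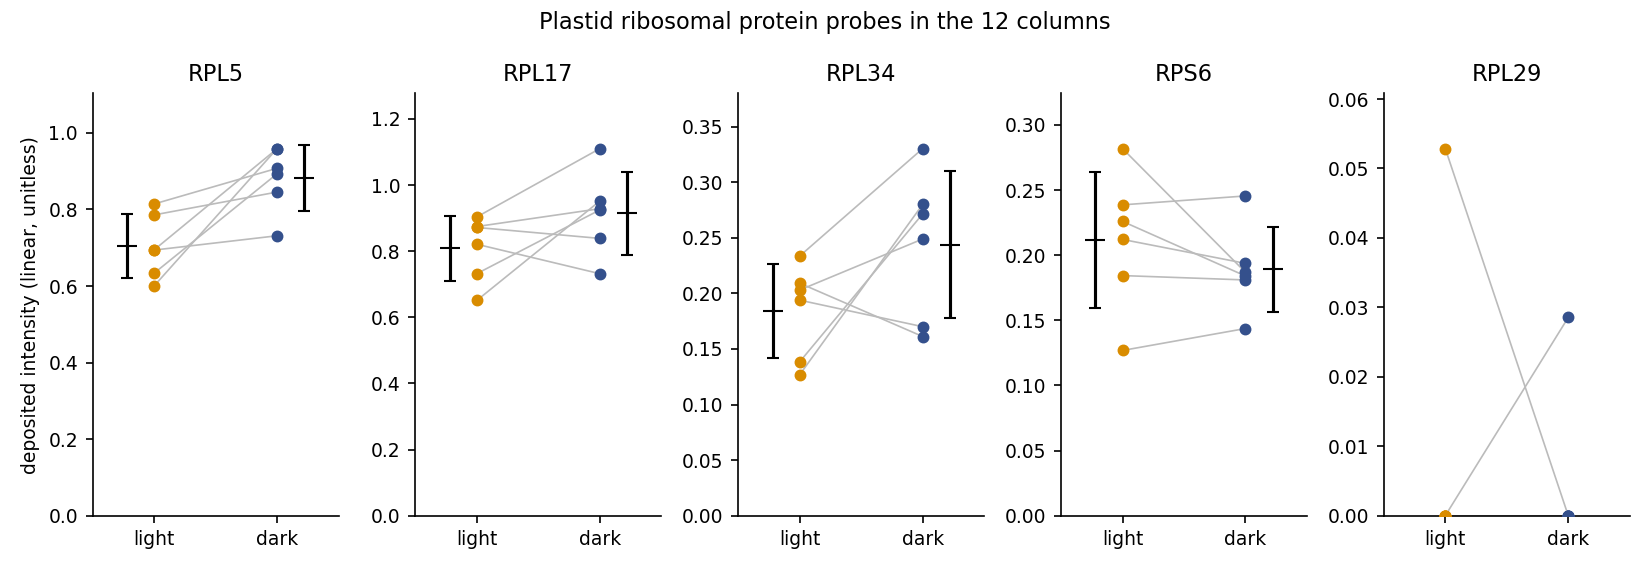
Deposited intensity (linear, unitless, each axis from 0) of the 5 probes in light (left) and dark (right). Points are columns, grey lines join columns of the same number, and the black marks beside the points are the mean ± SD (n = 6), left out for RPL29. The groups overlap in every panel, and RPL29 lies at 0 in 10 of the 12 columns.

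RPL29, whose bacterial counterpart sits beside the peptide exit of the large subunit, was listed at 0 in 10 of 12 columns. Light column 5 had an intensity of 0.0529 and dark column 6 one of 0.0285. The meaning of an exact 0 is not stated in the labels, so no fold is given. The probe was among the 3409 tested, but its fitted difference rests on the offset that replaces 0. Of all 3439 probes, 90 were listed at 0 in 10 or more columns and 30 of these in every column.

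The filter on dim probes, set at the lower quartile of all probe means (0.330), kept RPL5 and RPL17 and left out RPL34, RPS6 and RPL29. The coefficient of variation within a group was 11.8% in light and 9.7% in dark for RPL5, and 12.1% in light and 13.8% in dark for RPL17. It was 22.9% in light and 27.1% in dark for RPL34, and 24.8% in light and 17.3% in dark for RPS6. The median probe without zeros had 14.5% in light and 17.8% in dark. RPL34 and RPS6 thus varied more between columns than RPL5 and RPL17 did.

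The rest of the nuclear plastid ribosomal list was scarcely covered. Of 41 loci on the list, 6 had a probe with 1 gene name, the 5 above and AT3G13120, for RPS10 of the small subunit. RPS10 averaged 0.250 ± 0.0680 in light and 0.278 ± 0.130 in dark (SD, n = 6 each), with a log2 difference of -0.006 and an interval of -0.81 to 0.80 (limma adjusted p = 0.996). For RPS10 the replicate block gave an interval of -0.75 to 0.74 (limma adjusted p = 0.991). Its 6 dark columns ran from 0.0862 to 0.457 and enclosed the light range of 0.154 to 0.347. No locus of the 11 on a list of plastid translation factors had a probe with 1 gene name among those left. A search of the annotation text for other ribosomal proteins, translation factors or tRNA synthetases found 0 genes. Only symbols and synonyms were searched, so this search would miss genes listed by locus number alone and says little about coverage.

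**Figure D2:**
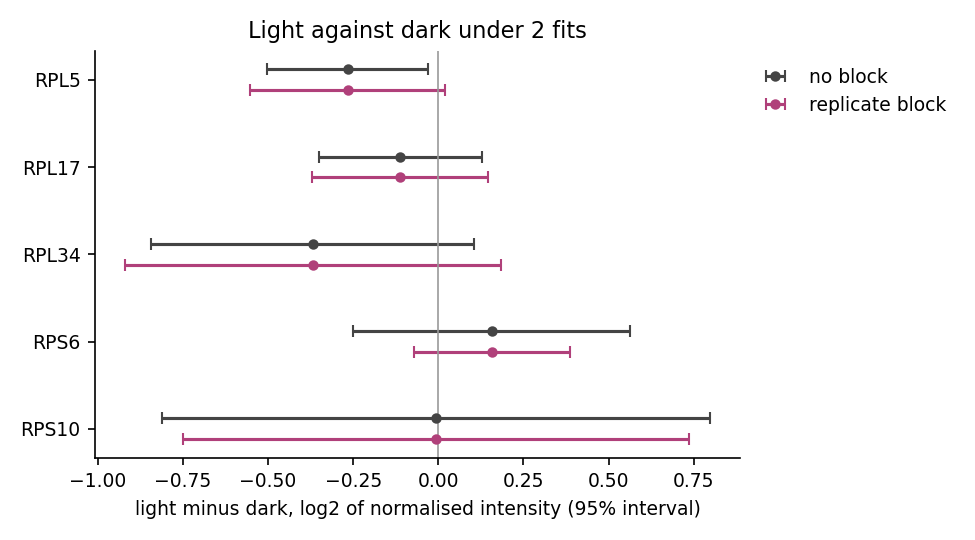
Light minus dark on the normalised log2 scale, with unadjusted 95% intervals, for 4 genes of the set and RPS10, from the fit without a block (grey) and with the column number as a block (magenta). The interval of RPL5 ends at -0.03 without the block and at 0.02 with it, and all other intervals hold 0.

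Columns of the same number deviated together across the groups over all probes, so the differences were also read number by number. On deposited intensities RPL5 was lower in light in 6 of 6 numbers, and after normalisation in 4 of 6. The 2 numbers that turned were 1 and 2, where the column median was 0.562 and 0.559 in light, against 0.635 and 0.621 in dark. RPL17 was lower in light in 4 of 6 numbers as deposited and 3 of 6 after normalisation, and RPL34 in 4 of 6 on both scales. RPS6 was higher in light in 4 of 6 numbers as deposited and 3 of 6 after normalisation.

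Taking the numbers by consecutive sets, the normalised log2 difference of RPL5 was 0.04 for numbers 1 and 2, -0.27 for 3 and 4, and -0.57 for 5 and 6. RPL34 had -0.09, -0.15 and -0.86 in the same sets, and RPL17 had -0.03, -0.08 and -0.23. RPS6 had 0.16, 0.36 and -0.04. Thus 3 of the 4 genes had their differences in descending order over the sets, an order that 19.4% of all tested probes had, while 19.6% had the ascending one. For RPL17 and RPL34 this order depended on the scaling, as given below. The interquartile range of all probes lay between -0.22 and 0.23 for numbers 1 and 2 and between -0.19 and 0.19 for numbers 5 and 6. RPL5, RPL17 and RPL34 lay inside this range in the first set and below it in the last.

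The deposited values behind these differences were as follows in light and dark. RPL5 intensity in light averaged 0.800, 0.664 and 0.647 over the 3 sets, against 0.877, 0.812 and 0.959 in dark. The widest gap of RPL5 was therefore in the set with its lowest light and its highest dark values. RPL34 averaged 0.174, 0.198 and 0.180 in light, against 0.216, 0.209 and 0.305 in dark, with its highest dark values in numbers 5 and 6. RPS6 averaged 0.169, 0.254 and 0.211 in light, against 0.169, 0.185 and 0.213 in dark. RPL17 averaged 0.889, 0.777 and 0.762 in light, against 1.02, 0.828 and 0.895 in dark.

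Whether the light difference depended on the set was tested with a limma F test over all 3409 probes, of which 0.352% were called. No member passed. RPL5 had an adjusted p of 0.334 (limma, unadjusted p = 0.0207), RPL34 one of 0.791, RPL17 one of 0.929 and RPS6 one of 0.908. For RPL5 the adjusted p was 0.417 with the replicate block (limma, unadjusted p = 0.0660) and 0.449 as deposited (limma, unadjusted p = 0.0874). Centred on the median it was 0.347 (limma, unadjusted p = 0.0309). On deposited values the differences of RPL5 over the sets were -0.13, -0.29 and -0.57, and centring columns on the median gave 0.01, -0.31 and -0.55. The descending order of RPL17 and RPL34 did not hold as deposited, where RPL17 had -0.19, -0.09 and -0.25 and RPL34 had -0.30, -0.05 and -0.82. Centred on the median, RPL34 had -0.15, -0.07 and -0.80, also out of order, and RPL17 had -0.05, -0.11 and -0.23. What the numbers mark is not in the labels, and the sets have no known order in time or material. Without numbers 5 and 6 the overall log2 differences were -0.12 for RPL5 and -0.12 for RPL34, and without numbers 1 and 2 they were -0.42 and -0.50.

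**Figure D3:**
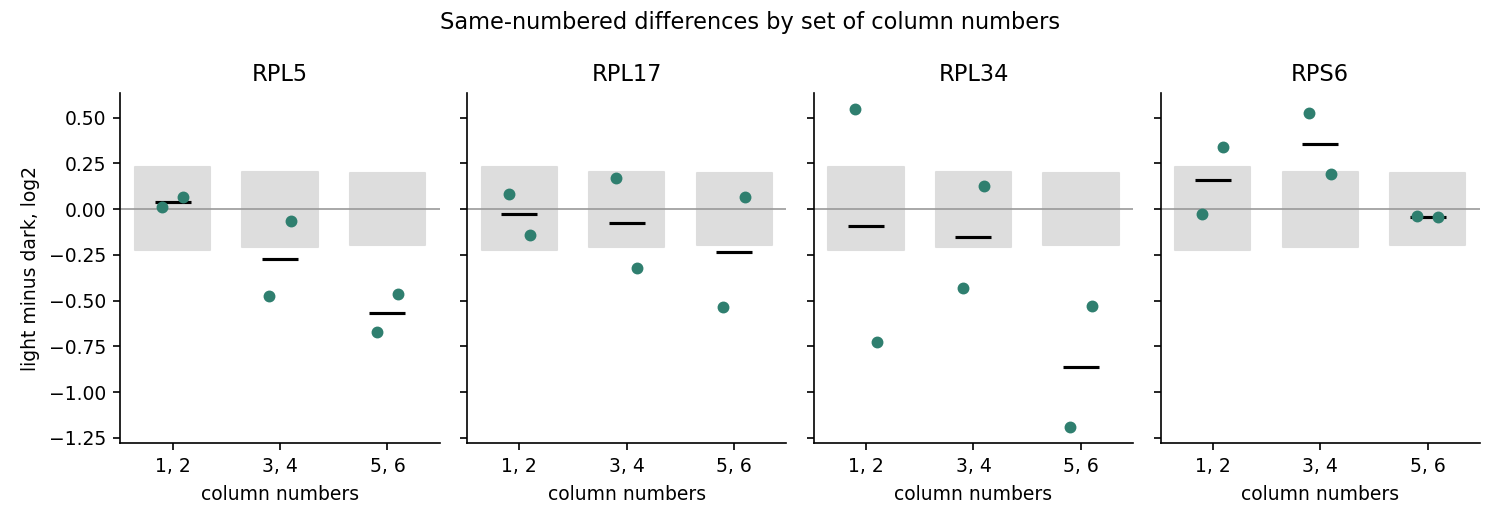
Normalised log2 light minus dark for each column number (points) in sets of consecutive numbers, with the mean of the set (black bar) and the interquartile range of all tested probes (grey). The RPL5 means are 0.04, -0.27 and -0.57, and RPL34 has its lowest mean, -0.86, for numbers 5 and 6.

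The spread of each gene over the 12 columns was divided into a part between light and dark, a part between column numbers and the remainder. There are more column numbers than groups, so random spread alone gives numbers the larger share. The shares of a gene are thus read against the median probe and not against each other. For RPL5, 38.9% of the sum of squares lay between light and dark and 17.5% between numbers. RPS6 had 6.25% between light and dark and 81.9% between numbers. RPL34 had 21.1% between light and dark and 29.5% between numbers, and RPL17 had 9.8% and 41.9%. The medians over 3178 probes without zeros were 10.1% between light and dark and 56.9% between numbers. RPL5, RPL17 and RPL34 thus followed the column number less, and RPS6 more, than the median probe, as a description without a test.

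No pair of members had a correlation past the threshold over the 12 columns. Of the 6 pairs among RPL5, RPL17, RPL34 and RPS6, RPL5 with RPL34 had the highest correlation of normalised log2 values, with Pearson's r = 0.646 (two-sided permutation p = 0.0255, adjusted over the 6 pairs 0.153). Spearman's rho of this pair was 0.636 (two-sided permutation p = 0.0300, adjusted 0.180). Without the 2 columns farthest from the RPL5 median r was 0.537. It was 0.318 within light columns, 0.698 within dark columns and 0.643 over the 6 same-numbered differences (two-sided exact permutation p = 0.203, adjusted 0.903). On deposited values r was 0.596, and centring columns on the median gave 0.597. Light column 5 was lowest for both genes, and dark columns 5 and 6 were highest for both.

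RPL5 with RPL17 had r = 0.450 (two-sided permutation p = 0.144, adjusted 0.431) and rho = 0.399 (permutation p = 0.203, adjusted 0.527). Without the 2 farthest columns r was 0.157, and it was 0.798 within light columns but -0.188 within dark columns, so the relation rested on part of the columns. RPL17 with RPL34 had r = 0.329 (two-sided permutation p = 0.293, adjusted 0.587) and rho = 0.245 (permutation p = 0.445, adjusted 0.527), with 0.207 without the 2 farthest columns, 0.509 within light columns and -0.009 within dark columns.

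RPS6 had low correlations of either sign with the large-subunit genes. Its r was -0.272 with RPL5, -0.151 with RPL17 and 0.210 with RPL34 (two-sided permutation p = 0.394, 0.648 and 0.512, adjusted 0.591, 0.648 and 0.615). The corresponding rho values were -0.231, -0.252 and 0.203 (permutation p = 0.474, 0.432 and 0.527, each 0.527 after adjustment). Without the 2 farthest columns the r values were -0.146, -0.329 and 0.019. Within light columns r with RPL5, RPL17 and RPL34 was -0.504, -0.066 and -0.015, and within dark columns 0.352, -0.098 and 0.801. The 12 columns share 6 numbers and a scaling, and same-numbered columns deviated together over all probes. They are thus not independent, and these p-values may be too small.

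**Figure D4:**
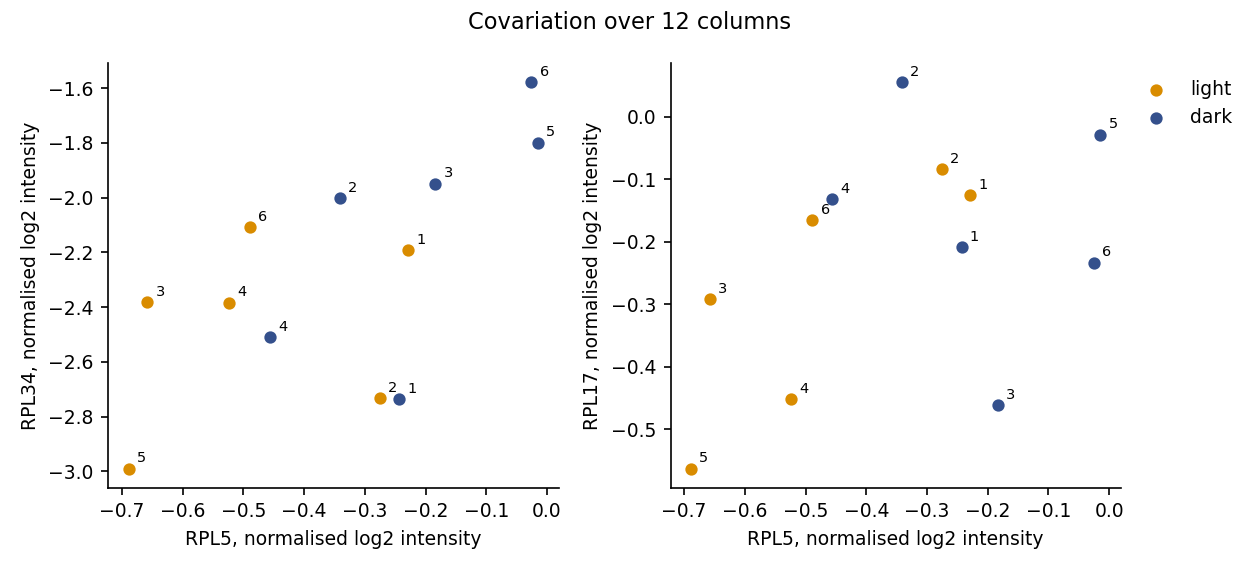
Normalised log2 intensity of RPL34 (left) and RPL17 (right) against RPL5 in the 12 columns, light in orange and dark in blue, each point labelled by its column number. RPL5 and RPL34 had r = 0.646 over all columns, and RPL5 and RPL17 had r = 0.450, with opposite signs within light (0.798) and dark (-0.188).

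The genes most like each member were ranked by Pearson's r over the 12 columns, among genes with 1 name, no zeros and a mean above the lower quartile. For RPL5 the nearest of 502 genes were AT5G50350 with r = 0.807, AT2G37000 with 0.720 and AT1G01250 with 0.720. Each added to these 502 in turn, for an order of 503, RPL34 stood at rank 9 for RPL5, RPS10 at rank 170 and RPS6 at rank 385, and RPL17, already among the 502, stood at rank 39. Over the 6 same-numbered differences r with RPL5 was 0.630 for AT5G50350, 0.364 for AT2G37000 and 0.834 for AT1G01250.

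For RPL17 the nearest genes were PAC, the PALE CRESS protein of chloroplast development, with r = 0.803, SBPASE, the sedoheptulose-bisphosphatase of the Calvin cycle, with 0.753, and AT4G09620 with 0.692. Over the same-numbered differences these had r of 0.951, 0.531 and 0.654 with RPL17. RPS10 stood at rank 29, RPL34 at rank 88 and RPS6 at rank 343 of 503 in this order, and RPL5 at rank 41 of 502. For RPL34 the nearest were SRX, a sulfiredoxin that repairs overoxidised peroxiredoxin, with r = 0.798, AT3G50880 with 0.692 and AT3G16760 with 0.680. Over the same-numbered differences these had r of 0.693, 0.870 and 0.377 with RPL34. RPL5 stood at rank 6 and RPL17 at rank 53 of 503 for RPL34, and RPS10 at rank 10 and RPS6 at rank 110 of 504.

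For RPS6 the nearest genes were AT4G17070 with r = 0.868, AT4G27700 with 0.802 and AT2G35490 with 0.785. Over the 6 same-numbered differences r with RPS6 was 0.618 for AT4G17070, -0.242 for AT4G27700 and -0.547 for AT2G35490. RPS10 stood at rank 22 of 504 for RPS6, with r = 0.585, above RPL34 at rank 131. RPL17 stood at rank 290 and RPL5 at rank 350 of 503. On deposited values the r of the 12 genes named here lay between 0.710 for AT3G16760 and 0.843 for AT5G50350. The median r of all genes compared was -0.015 for RPL5, 0.021 for RPL17, -0.034 for RPL34 and -0.089 for RPS6. The nearest genes were picked for a high r over these columns. Their same-numbered differences come from the same values, so the r of these is no separate evidence. These ranks describe 12 columns that share numbers and a scaling, and they carry no test.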

How the data were processed

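The authors deposited linear intensity values for 3439 probes in 12 columns, with no negative value and 129 to 148 exact zeros per column. Totals were 3466 to 3664, and 11 columns reached a ceiling of 100. Background treatment, scaling and array type were not given in the sources used here. Precision is limited by the number of columns. Separate plants are not stated for the columns, so p-values measure a spread that may be technical.

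Quantile normalisation was applied to the columns, zeros were reset to 0, and 2.529e-05, the smallest positive value, was added before taking log2. Probes at 0 throughout (30) were not tested. The other 3409 were fitted with limma 3.58.1 under R 4.3.3 (two-sided moderated tests by lmFit and eBayes, Benjamini-Hochberg over all probes, threshold 0.05). Means ± SD are deposited intensities, so their ratio can differ from the fold. Correlations used permutation tests with 100000 resamples, or exact ones over 6 differences (Python 3.11.15, numpy 2.4.6, pandas 2.3.3, scipy 1.17.1, matplotlib 3.10.9). Scripts were tested on simulated data.

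Probes were named from the platform annotation, 690 of 692 single names matching RefSeq TAIR10.1, used for names only. Deviations of same-numbered columns from their group means correlated by 0.66 to 0.786 over 2554 probes, so the numbers were taken to pair columns, and the replicate block was an alternative. Other alternatives were other scalings, a larger offset, a filter on dim probes, other treatment of consecutive numbers and columns left out. Named genes are the 5 members, other measured genes of the fixed lists and the 3 nearest by r to each member without zeros. Members and lists were chosen with earlier results of these data known.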

Additional observations from a re-analysis of the deposited data

Results flagged for a closer look

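In each of 2 groups of RPL29, 1 column stood far from the other 5, all of which were listed at 0. Light column 5 had an intensity of 0.0529 and dark column 6 an intensity of 0.0285. With 5 values at 0, any positive value stands out in this way, so the rate of about 1 in 20 groups that chance gives does not apply to these. In all, 12 groups of 6 values were looked at. No column of RPL5, RPL17, RPL34, RPS6 or RPS10 stood out in this way.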

How the results depend on the processing

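No member passed the threshold in any of the 25 alternatives, replicate block included, and RPL5, RPL17, RPL34 and RPS6 kept their direction in each alternative that held them. The lowest adjusted p of the 4 was 0.0747, for RPL5 as deposited. The highest was 0.670 for RPL5, 0.897 for RPL17, 0.823 for RPL34 and 0.959 for RPS6. RPL5 ranged from -0.42 to -0.12, RPL34 from -0.50 to -0.12, RPL17 from -0.17 to -0.05 and RPS6 from 0.06 to 0.29. A single column moved RPS6 by over 1.5 times, to 0.061 without dark 1, 0.077 without light 3, 0.239 without dark 6 and 0.289 without light 1. Likewise RPL17 was -0.056 without light 5, -0.068 without dark 2 and -0.171 without dark 3. RPL34, RPS6 and RPS10 were not in the fit without dim probes. RPS10 turned to 0.026 with columns centred on the median, also with the replicate block, to 0.286 without numbers 5 and 6, and ran from -0.317 to 0.154 without 1 column.

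The count of 197 probes was 448 with the replicate block (432 as deposited and 507 centred on the median, both added after seeing the data). It was 42 where consecutive numbers of a group formed a random block, with a consensus correlation of 0.42 within these blocks. Further counts were 44 without numbers 1 and 2, 86 without 5 and 6, and 103 to 168 without 1 column. The count was 0 with consecutive numbers averaged and 0 without numbers 3 and 4 (limma, 335 and 453 at an unadjusted p under 0.05). The fit without numbers 3 and 4 holds as many columns as the fits without either other set. The cause of these counts was not tested.

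No member pair passed under another scaling or over same-numbered differences. The sign of r turned within dark columns for RPL5 with RPL17 (-0.188), RPL5 with RPS6 (0.352) and RPL17 with RPL34 (-0.0094), and within light for RPL34 with RPS6 (-0.015). Over same-numbered differences it turned for RPL5 with RPS6 (0.164), RPL17 with RPS6 (0.316) and RPL34 with RPS6 (-0.061). The cause was not tested.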
